A study of Rattus norvegicus with 6 samples.

Results

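Genes of ribosome assembly and subunits of the 3 nuclear RNA polymerases were examined in UMR106-01, a clonal rat osteosarcoma cell line used as an osteoblast model. The genes were chosen by symbol alone: a probe set belonged when its annotation gave exactly 1 symbol and that symbol began with Nop, Nol, Utp or Rrp and a digit, with Polr1, Polr2 or Polr3 and a letter, or was Rrs1, Bop1, Pes1, Wdr12, Fbl, Dkc1, Gar1, Nhp2, Ncl or Npm1. This rule took 91 of 31099 probe sets and 73 of 14217 genes. Of these genes, 41 encode nucleolar factors, 29 encode polymerase subunits (6 of polymerase I, 8 of polymerase II, 8 of polymerase III and 7 shared between enzymes), and 3, Nol3, Nol4 and Nol4l, match by name alone. Npm1 was not analysed here. All but Nol4 passed the filter on dim probe sets, described with the methods, which left 72 genes tested. Nol4 read 81.0, 39.4 and 63.7 on the mineralizing arrays and 16.9, 72.8 and 37.1 on the AEBSF arrays, within the dim range.

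RNA from 6 cultures was measured on 1 Affymetrix array each. Every culture was plated at 100000 cells per cm2 and grown with fetal bovine serum at 10% and HEPES at 10 mM. At 64 h the medium was exchanged, now with beta-glycerol phosphate at 6.5 mM, a phosphate donor that lets these cultures mineralize, and at 76 h RNA was collected. The 3 mineralizing cultures received nothing else. The 3 AEBSF cultures also received 400 µM AEBSF, an irreversible serine protease inhibitor, for those 12 h. Beta-glycerol phosphate was therefore present on both sides, and no group lacked it. Values are MAS5 signals, linear intensities set to a common mean on every array, and each gene is read from its brightest probe set. Fold changes are AEBSF over mineralizing on the log2 scale, from limma, with p-values adjusted over all 18625 tested probe sets and a threshold of 0.05. In bulk RNA such as this, fewer cells of a type and less RNA per cell cannot be told apart.

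Ribosomes are built in the nucleolus. RNA polymerase I copies the long ribosomal RNA precursor there, and the small subunit processome, the box C/D and box H/ACA ribonucleoproteins and the large subunit factors fold, cut and modify it while ribosomal proteins are added. RNA polymerase III supplies 5S ribosomal RNA and transfer RNAs, and RNA polymerase II transcribes the genes of ribosomal proteins and of the assembly factors themselves. Growing cells make ribosomes at a high rate, and many assembly factor genes have an E-box (the letters CACGTG), the sequence bound by Myc and related factors.

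Members of both gene classes were higher in the AEBSF cultures, by modest amounts. Of the 72 tested genes, 20 (27.8%) rose past the threshold and 0 fell. Among all 9864 tested genes 16.3% were called, 7.09% higher and 9.22% lower. At an unadjusted limma p below 0.05 the members gave 32 higher and 1 lower, Polr2l, against 15.2% higher and 16.6% lower of all tested genes. The 3 AEBSF values all lay above the 3 mineralizing values for 31 of the 72 genes, against 17% of all tested genes, and all lay below for 1, Nol8, against 19.1%. A positive log2 fold change was found for 56 of the 72 and for 50.3% of all tested genes. With hybridization control scaling it was found for 20 of the 41 nucleolar factors, 13 of the 29 polymerase subunits and 2308 of all 9864 tested genes. The median over nucleolar factors was 0.14 and over polymerase subunits 0.14, beside 0.00 over all tested genes. These levels are relative to the rest of each array: with the arrays scaled to the spiked hybridization controls in place of the common mean, the medians were -0.01 for both classes and -0.14 for all genes.

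Promoter stretches of 6 genes are printed because their genes rose with AEBSF and carry an E-box upstream of the start. They are from RefSeq, assembly GRCr8, 120 bases each on the strand of the gene, with the E-box in capitals. Those of Utp4 (chr19:51702121-51702240, + strand), Rrp1 (chr20:10260460-10260579, + strand), Pes1 (chr14:83074226-83074345, + strand) and Polr2f (chr7:112592944-112593063, + strand) end at the base before the start. Those of Rrp7a (chr7:116152995-116153114, - strand) and Polr3g (chr2:13721933-13722052, - strand) run from base -250 to base -131.
Utp4: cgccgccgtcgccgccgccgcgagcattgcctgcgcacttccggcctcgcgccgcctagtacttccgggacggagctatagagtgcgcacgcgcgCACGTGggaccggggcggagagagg
Rrp1: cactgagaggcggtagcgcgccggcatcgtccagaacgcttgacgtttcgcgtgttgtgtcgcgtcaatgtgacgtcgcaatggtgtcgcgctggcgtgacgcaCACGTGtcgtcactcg
Pes1: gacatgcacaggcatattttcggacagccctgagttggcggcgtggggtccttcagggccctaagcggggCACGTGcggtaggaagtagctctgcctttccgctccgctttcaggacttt
Polr2f: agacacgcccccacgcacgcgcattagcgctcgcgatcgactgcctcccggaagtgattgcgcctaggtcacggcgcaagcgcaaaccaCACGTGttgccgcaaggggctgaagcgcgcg
Rrp7a: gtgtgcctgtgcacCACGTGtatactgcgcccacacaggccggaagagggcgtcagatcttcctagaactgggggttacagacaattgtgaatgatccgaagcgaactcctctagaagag
Polr3g: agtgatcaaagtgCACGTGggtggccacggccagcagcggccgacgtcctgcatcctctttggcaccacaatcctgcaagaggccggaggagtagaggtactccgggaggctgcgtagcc

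The E-box begins at base -25 in Utp4, -16 in Rrp1, -50 in Pes1, -31 in Polr2f, -236 in Rrp7a and -237 in Polr3g. Promoter windows of 300 bases, from 250 before to 50 after the start, were found for 66 of the 73 genes; Bop1, Nol3, Polr2c, Polr2k, Polr3d, Rrs1 and Utp23 had no entry. The letters CACGTG, which read the same on both strands, occurred in 22 of the 66 windows (33.3%), in 10.2% of the windows of 8326 tested genes and in 6.65% of all 27457 windows. Of the nucleolar factors that rose, 8 of 13 windows held it (61.5%), and of those not past the threshold 7 of 25 (28.0%). Besides Utp4, Rrp1, Pes1 and Rrp7a these were Nol6, Rrp8, Fbl and Nop2. Among polymerase subunits 7 of 26 windows held it (26.9%), 3 of them among the 5 windows of subunits that rose, Polr2f, Polr3g and Polr3e. For comparison, CCGGAAG, a core bound by ETS factors, was searched on both strands. It never overlapped an E-box in a member and was in 42.4% of member windows and 19.5% of those of tested genes. Among nucleolar factors it was in 46.2% of the windows of those that rose and in 48.0% of the others, and among polymerase subunits in 38.5% of all windows and in 3 of the 5 of subunits that rose, the same number as for the E-box. These are matches of letters, given without a test.

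Among the 41 nucleolar factors, 14 (34.1%) rose and 0 fell, with 20 higher and 0 lower at an unadjusted limma p below 0.05 (15.2% and 16.6% of all tested genes). They spanned the pathway: 6 of 19 small subunit factors, 7 of 14 large subunit factors, 1 of 3 box C/D core proteins, 0 of 4 box H/ACA core proteins, and not nucleolin. Log2 fold changes ran from -0.18 to 0.48, and 31 of the 41 were above 0. The groups did not overlap, AEBSF higher, for 20 (48.8%, against 17% of all tested genes), did not overlap in the other direction for 1, and overlapped for 20. Leaving out 1 culture lowered the count of 14 to 8 without mineralizing culture 1, 8 without mineralizing culture 2 and 9 without AEBSF culture 1. The share of all tested genes called higher fell as well, from 7.09% to 2.96%, 3.23% and 3.98% in that order. With hybridization control scaling 1 of the 14, Bop1, stayed past the threshold, and with a constant variance prior in limma 3 did, Bop1, Rrp8 and Nop9. Under these settings 0.618% and 1.47% of all tested genes were higher.

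**Figure D1:**
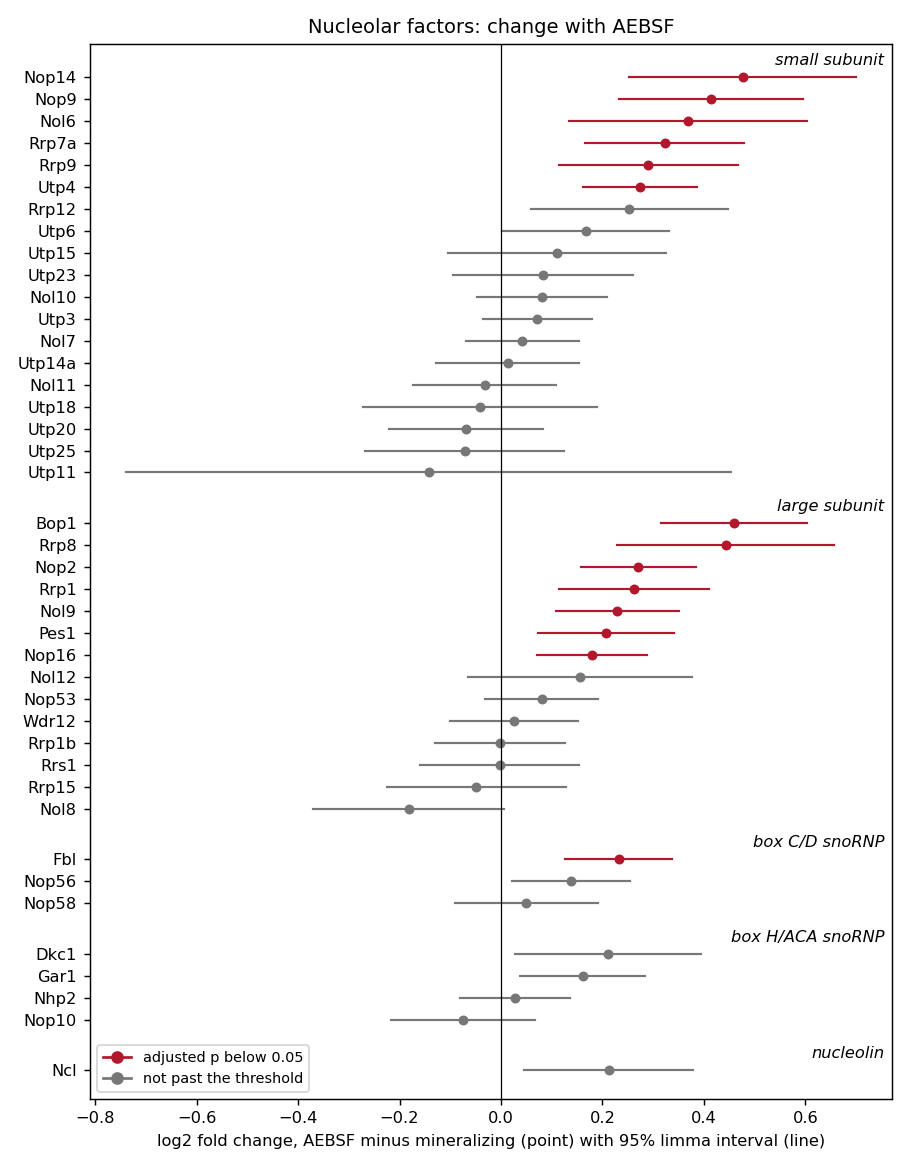
Log2 fold change of the 41 nucleolar factors, AEBSF minus mineralizing (point), with the 95% limma interval (line), grouped by role and coloured by whether the adjusted p was below 0.05. The 14 genes past the threshold all lie to the right of 0, from 0.18 for Nop16 to 0.48 for Nop14, while Nol8 and Utp11 lie farthest to the left.

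The small subunit processome assembles around the nascent precursor and prepares the 18S RNA. Nop14, one of its structural proteins, read 773, 948 and 1051 in the mineralizing cultures and 1338, 1317 and 1177 with AEBSF. Every AEBSF value was above every mineralizing one, and the means rose from 924 ± 141 to 1277 ± 87.6 (SD, n = 3), a log2 fold change of 0.48 (SE 0.10, limma adjusted p = 0.0117). Nop9, an RNA-binding small subunit factor, went from 446, 472 and 490 to 629, 640 and 606. Its groups lay well apart, at 0.41 (SE 0.08, adjusted p = 0.00815). Utp4, of the complex that joins the precursor first, read 3159, 3294 and 3248 and then 3774, 4012 and 3947. The groups were again separate, with means of 3234 ± 68.3 and 3911 ± 123 and a log2 fold change of 0.27 (SE 0.05, adjusted p = 0.00598). These 3 stayed past the threshold whichever culture was left out, though not with hybridization control scaling, and Nop14 and Utp4 not with the constant prior.

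Nol6, Rrp7a and Rrp9 also rose, with less margin. Nol6 and Rrp7a belong to 1 complex of the processome, and Rrp9 binds the U3 RNA that guides the early cuts. Nol6 read 390, 381 and 369 in the mineralizing cultures and 522, 534 and 423 with AEBSF (0.37, SE 0.11, adjusted p = 0.0425). Rrp7a read 754, 715 and 767 and then 904, 984 and 908 (0.32, SE 0.07, adjusted p = 0.0142). Rrp9 read 1223, 1219 and 1444 and then 1519, 1715 and 1511 (0.29, SE 0.08, adjusted p = 0.0351). None of the 3 had overlapping groups, although mineralizing culture 3 was the highest control for Rrp9 and AEBSF culture 3 the lowest treated value for Nol6. Leaving out mineralizing culture 1, 2 or 3 ended the call of Nol6 (adjusted p = 0.0952, 0.105 and 0.111), as did leaving out AEBSF culture 1 (0.128) or 2 (0.121). That of Rrp9 was lost without mineralizing culture 1 (0.132) or 2 (0.127) and without AEBSF culture 1 (0.0541) or 2 (0.103), and that of Rrp7a without mineralizing culture 2 (0.0648).

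The other 13 small subunit factors did not pass, with log2 fold changes from -0.14 to 0.25. Of these Rrp12, an export factor of pre-ribosomes, came closest: 688, 761 and 621 against 776, 876 and 811, without overlap, at 0.25 (adjusted p = 0.0824). Its 3 tested probe sets gave 0.25, 0.27 and 0.21, none past the threshold. Nol10 and Utp3 also had AEBSF values all above the mineralizing ones, at 0.08 and 0.07. Utp11 showed how wide a member could scatter: 378, 366 and 605 against 289, 671 and 321, an interval from -0.74 to 0.45.

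Large subunit factors contributed the count's other large share, 7 of 14. Pes1, Bop1 and Wdr12 form the PeBoW complex, which is needed to process the precursor of the large subunit RNAs, and they did not move alike. Bop1 read 1649, 1555 and 1616 in the mineralizing cultures and 2324, 2292 and 2021 with AEBSF. The lowest AEBSF value stood far above the highest mineralizing one. Bop1 had the smallest adjusted p of all members, with means of 1607 ± 47.7 and 2212 ± 166 and a log2 fold change of 0.46 (SE 0.07, 95% interval 0.31 to 0.60, adjusted p = 0.00132). It was called under every setting tried, also with hybridization control scaling (0.31, adjusted p = 0.0439). Pes1 read 2756, 2678 and 2775 and then 3437, 3008 and 3048, at 0.21 (SE 0.06, adjusted p = 0.045). Its groups were separate, AEBSF culture 1 standing above the other AEBSF cultures, and leaving out mineralizing culture 1, 2 or 3 or AEBSF culture 1 ended the call (adjusted p = 0.109, 0.145, 0.0854 and 0.141). Wdr12 read 2205, 2084 and 2090 and then 2094, 2267 and 2136. Those values overlapped throughout, with a log2 fold change of 0.03 and an interval from -0.10 to 0.15 (adjusted p = 0.811), which leaves out a rise of the size measured for Bop1. The difference between the PeBoW genes was not tested.

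Enzymes that modify ribosomal RNA or its ends were among the large subunit factors that rose. Rrp8, an RNA methyltransferase, read 376, 373 and 388 in the mineralizing cultures and 497, 481 and 574 with AEBSF (0.44, SE 0.10, adjusted p = 0.0134). The mineralizing values were tightly grouped and every AEBSF value lay above them. Nop2, a cytosine methyltransferase of 28S RNA, read 3958, 4011 and 4206 and then 4815, 5068 and 4803 (0.27, SE 0.05, adjusted p = 0.00659). Nol9, a polynucleotide kinase, read 1587, 1654 and 1651 and then 1894, 1943 and 1898 (0.23, SE 0.06, adjusted p = 0.0193). In both the spread within a group was small beside the step between groups. Rrp8 and Nop2 kept their calls without any single culture, while Nol9 lost it without mineralizing culture 1 (0.0855) or 2 (0.0612).

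Rrp1 and Nop16, assembly factors of early large subunit particles, rose as well. Rrp1 read 1198, 1249 and 1305 and then 1506, 1592 and 1404 (0.26, SE 0.07, adjusted p = 0.0262). Nop16 read 3311, 3346 and 3212 and then 3714, 3749 and 3709 (0.18, SE 0.05, adjusted p = 0.0348), the smallest rise of the 14. Neither gene's groups overlapped. Leaving out mineralizing culture 1 or 2, or AEBSF culture 1 or 2, ended the call of Rrp1 (adjusted p = 0.108, 0.0811, 0.0629 and 0.0742). For Nop16 the call was lost without any 1 of the 6 cultures (adjusted p from 0.0552 to 0.101).

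Not every large subunit factor shared this direction. Nol8 read 757, 724 and 735 in the mineralizing cultures and 587, 657 and 716 with AEBSF. Among the brightest probe sets of the members, only that of Nol8 had all AEBSF values below all mineralizing ones. Its log2 fold change of -0.18 had an interval from -0.37 to 0.01 (limma adjusted p = 0.192), and its second probe set gave -0.16. Rrs1, which brings the 5S particle into the large subunit, read 1523, 1628 and 1708 and then 1539, 1549 and 1768. The groups overlapped, with an interval from -0.16 to 0.15. Rrp1b, a paralog of Rrp1, was also near 0 on each of its 3 probe sets.

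The box C/D particles place methyl groups on ribose and the box H/ACA particles turn uridine into pseudouridine. Of the box C/D core, fibrillarin (Fbl), the methyltransferase, read 7005, 7185 and 7166 in the mineralizing cultures and 8330, 8166 and 8587 with AEBSF. Its groups did not overlap, with means of 7119 ± 98.9 and 8361 ± 212 and a log2 fold change of 0.23 (SE 0.05, adjusted p = 0.0104), and the call held without any single culture. Its scaffold partner Nop56 read 6748, 6707 and 7260 and then 7413, 7847 and 7536, also without overlap, at 0.14 (adjusted p = 0.108). Nop58, the other scaffold protein and one of the brightest members, read 11016, 12816 and 12327 and then 12642, 11782 and 12970. These overlapped, at 0.05 with an interval from -0.09 to 0.19.

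Of the 4 H/ACA core genes 0 passed, and 2 were higher at an unadjusted limma p below 0.05, beside 15.2% of all tested genes. Dkc1, the pseudouridine synthase, read 1213, 1286 and 1424 and then 1632, 1564 and 1350, so that AEBSF culture 3 fell inside the mineralizing range. At 0.21 its interval was 0.03 to 0.39 (adjusted p = 0.12), and without that culture it passed (0.29, adjusted p = 0.0342). Gar1 read 2272, 2436 and 2433 and then 2707, 2556 and 2721, without overlap, at 0.16 (adjusted p = 0.0814). Nhp2 was at 0.03 (interval -0.08 to 0.14), and Nop10 at -0.08 (interval -0.22 to 0.07). The genes of this 1 particle thus spread from -0.08 to 0.21 on the log2 scale.

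Nucleolin (Ncl), an abundant RNA-binding protein of the nucleolus, read 12020, 14428 and 12411 in the mineralizing cultures and 15097, 13780 and 16104 with AEBSF. Mineralizing culture 2 was above AEBSF culture 2, so the groups overlapped, at 0.21 with an interval from 0.05 to 0.38 (adjusted p = 0.0877). Without mineralizing culture 2 it was called (0.29, adjusted p = 0.044). The genes that match by name alone gave no call: Nol3, an inhibitor of apoptosis, was at -0.11 (interval -0.26 to 0.04), with 1554, 1452 and 1426 against 1361, 1462 and 1275, and Nol4l was at -0.16 (adjusted p = 0.64).

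**Figure D2:**
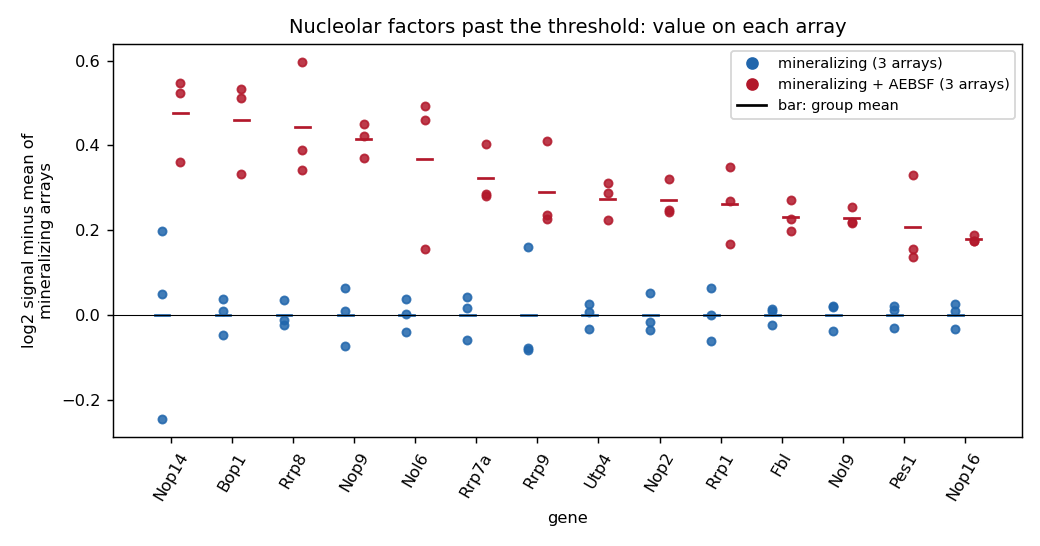
Log2 signal of each of the 14 nucleolar factors past the threshold on each of the 6 arrays, as the difference from that gene's mean over the 3 mineralizing arrays. The points of the 3 AEBSF arrays lie above those of the 3 mineralizing arrays for all 14 genes.

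RNA polymerase subunits moved by similar amounts but fewer passed: 6 of 29 (20.7%) rose and 0 fell, with 12 higher and 1 lower at an unadjusted limma p below 0.05 (15.2% and 16.6% of all tested genes). Log2 fold changes ran from -0.21 to 0.35, with 25 of 29 above 0, and 11 of 29 had AEBSF values all above the mineralizing ones (37.9%, against 17% of all tested genes). The count moved with single cultures: 0 without mineralizing culture 1, 0 without mineralizing culture 2, 2 without mineralizing culture 3, 3 without AEBSF culture 1 and 3 without AEBSF culture 2. Calls over the whole array fell too: in that order 2.96%, 3.23%, 4.38%, 3.98% and 4.84% of all tested genes were higher, beside 7.09% with all cultures. With hybridization control scaling 0 of the 6 were called, and with the constant variance prior 0, where 0.618% and 1.47% of all tested genes were higher.

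**Figure D3:**
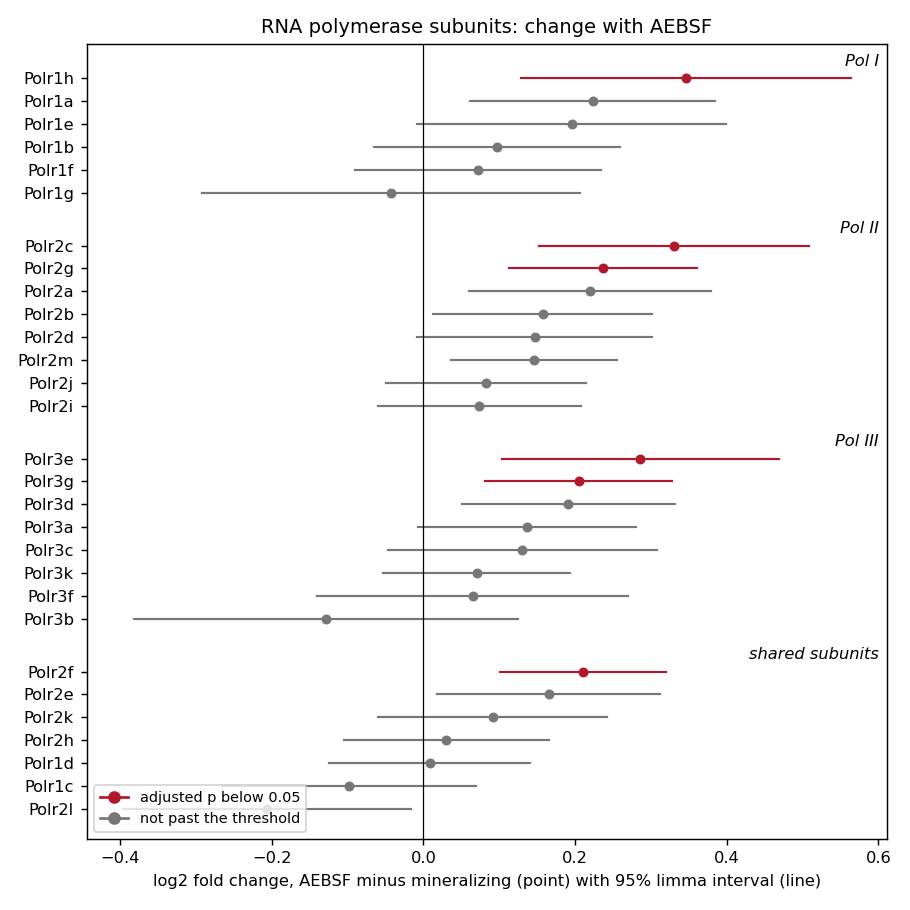
Log2 fold change of the 29 RNA polymerase subunits, AEBSF minus mineralizing (point), with the 95% limma interval (line), grouped by the enzyme they belong to. All 8 polymerase II subunits lie above 0, and the shared subunits spread from -0.21 for Polr2l to 0.21 for Polr2f. With hybridization control scaling, not drawn here, 5 of the 8 polymerase II subunits and 2308 of the 9864 tested genes were above 0.

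In polymerase I, 1 of 6 subunits rose. Polr1h, the small subunit that helps the enzyme cleave and release stalled transcripts, read 583, 569 and 629 in the mineralizing cultures and 797, 830 and 647 with AEBSF. AEBSF culture 3 was only just above the mineralizing values, and the log2 fold change was 0.35 (SE 0.10, limma adjusted p = 0.04). Leaving out mineralizing culture 1, 2 or 3 ended the call (adjusted p = 0.117, 0.123 and 0.0605), as did leaving out AEBSF culture 1 (0.119) or 2 (0.117). Of the catalytic pair, the largest subunit Polr1a read 720, 681 and 751 and then 858, 852 and 801. Those groups did not overlap, at 0.22 (interval 0.06 to 0.39, adjusted p = 0.0677). The other, Polr1b, read 893, 827 and 809 and then 917, 940 and 848, which overlapped, at 0.10 (interval -0.06 to 0.26). Polr1f, of the stalk that contacts initiation factors, read 2118, 2507 and 2435 and then 2666, 2372 and 2375 (0.07, adjusted p = 0.569). Its 3 tested probe sets disagreed in sign, at 0.07, -0.15 and 0.12, the second with all AEBSF values below all mineralizing ones. Polr1e and Polr1g were at 0.20 and -0.04, not past the threshold.

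In polymerase II, 2 of 8 subunits rose and all 8 were above 0. With hybridization control scaling 5 of the 8 were above 0, beside 2308 of all 9864 tested genes. Polr2c, of the assembly platform, read 2239, 1925 and 2478 in the mineralizing cultures and 2777, 2879 and 2657 with AEBSF. The mineralizing values were widely spread, but the highest stayed below the lowest AEBSF value (0.33, SE 0.08, adjusted p = 0.0215). Polr2g, of the stalk, read 3235, 3416 and 3354 and then 4154, 3923 and 3724, again apart (0.24, SE 0.06, adjusted p = 0.0188). Polr2c did not pass when mineralizing culture 1 (0.0596) or 2 (0.08), or AEBSF culture 1 (0.0556) or 2 (0.0598), was left out. Polr2g did not pass when mineralizing culture 1 (0.0772) or 2 (0.0517), or AEBSF culture 1 (0.0658), was left out. The largest subunit, Polr2a, read 926, 874 and 874 and then 1033, 1114 and 969. Although separate, its groups missed the threshold at 0.22 (interval 0.06 to 0.38, adjusted p = 0.0681), and passed without AEBSF culture 3 (0.27, adjusted p = 0.0397). The other catalytic subunit, Polr2b, read 3264, 3620 and 3755 and then 3705, 4177 and 3977, with overlap, at 0.16 (adjusted p = 0.141). Polr2m, an associated protein rather than a core subunit, read 5444, 5292 and 5403 and then 5735, 6115 and 6018, without overlap, at 0.15 (adjusted p = 0.0753).

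In polymerase III, 2 of 8 subunits rose. Polr3e read 728, 679 and 690 in the mineralizing cultures and 764, 895 and 904 with AEBSF, where AEBSF culture 1 was close to the mineralizing range (0.29, SE 0.08, adjusted p = 0.0427). Polr3g, which joins the enzyme to its initiation factors, read 1572, 1583 and 1599 and then 1765, 1838 and 1877, well apart (0.20, SE 0.06, adjusted p = 0.0337). Leaving out any of the 3 mineralizing cultures ended the call of Polr3e (adjusted p = 0.0834, 0.131 and 0.11 in order of number), as did leaving out AEBSF culture 2 (0.109) or 3 (0.105). The same 5 omissions ended that of Polr3g (0.111, 0.105, 0.0783, 0.0682 and 0.0694). Polr3d read 1577, 1544 and 1673 and then 1844, 1923 and 1709, also separate, at 0.19 (adjusted p = 0.0712), and passed without AEBSF culture 3 (0.24, adjusted p = 0.0365). The catalytic subunits differed in sign. Polr3a read 1079, 1017 and 1093 and then 1116, 1207 and 1183, without overlap (0.14, interval -0.01 to 0.28), while Polr3b read 312, 267 and 283 and then 257, 268 and 261, with overlap (-0.13, interval -0.38 to 0.13). The brightest, Polr3k, read 2050, 2108 and 2145 and then 2107, 2276 and 2237 (0.07, adjusted p = 0.451).

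Of the 7 subunits that belong to more than 1 polymerase, 1 rose, and their median was 0.03. Polr2f, common to all 3 enzymes, read 3064, 3169 and 3063 in the mineralizing cultures and 3601, 3627 and 3530 with AEBSF. The spread was small on both sides, with means of 3099 ± 60.7 and 3586 ± 50.2 and a log2 fold change of 0.21 (SE 0.05, adjusted p = 0.0184). Its second probe set gave 0.16 and was not called, and leaving out mineralizing culture 1 (0.0708), 2 (0.0544) or 3 (0.055) ended the call. Polr2l, a small platform subunit also common to all 3, went the other way: 1927, 1718 and 1942 against 1775, 1686 and 1400, overlapping, at -0.21 (interval -0.40 to -0.02, adjusted p = 0.143). With hybridization control scaling it was the member called lower (-0.35, adjusted p = 0.0377). Polr1d, shared by polymerases I and III, read 10064, 10530 and 11646 and then 10868, 11071 and 10431 (0.01, interval -0.12 to 0.14), with overlap. Its second tested probe set gave -0.17 without overlap, at 4273, 4370 and 4208 and then 4000, 3769 and 3633 (interval -0.29 to -0.06, adjusted p = 0.0536). The partner of Polr1d, Polr1c, was at -0.10. Polr2k read 4932, 4427 and 5291 and then 5528, 5028 and 5027 (0.09, adjusted p = 0.422), with overlap. Polr2e was at 0.17 (adjusted p = 0.13) and passed without AEBSF culture 2 (0.23, adjusted p = 0.0403).

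Nucleolar factors and polymerase subunits had medians of 0.139 and 0.136 on the log2 scale under the deposited scaling. Their order and distance moved with the setting: they were 0.109 and 0.142 after quantile normalization, 0.101 and 0.136 with probe sets averaged, 0.095 and 0.140 without mineralizing culture 1, and 0.170 and 0.117 without AEBSF culture 2. By enzyme the medians were 0.15 for polymerase I, 0.15 for polymerase II, 0.13 for polymerase III and 0.03 for the shared subunits. On single arrays the median of the nucleolar factors, relative to their mineralizing mean, was -0.03, 0.00 and 0.03 in the mineralizing cultures and 0.12, 0.12 and 0.16 with AEBSF. For the polymerase subunits it was 0.00, -0.03 and 0.03 and then 0.13, 0.16 and 0.12. In both pooled classes the 3 AEBSF arrays lay above the 3 mineralizing ones. Of the shared subunits alone this was not so: mineralizing culture 3, at 0.06, was above AEBSF cultures 2 (0.03) and 3 (0.05). Genes are not replicates, and no test was made between the classes.

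The direction of these medians rested on the scaling of the arrays. After quantile normalization they were 0.11 for nucleolar factors, 0.16, 0.15 and 0.14 for polymerases I, II and III and 0.04 for the shared subunits, beside 0.00 for all genes. Scaled to the hybridization controls they became -0.01, 0.00, 0.01, -0.01 and -0.12, beside -0.14 for all genes. The distance from the nucleolar median to that of all genes, which that scaling cannot change, was 0.14, and it was 0.11 after quantile normalization. With hybridization control scaling 0.618% of all tested genes were called higher and 15.6% lower. The mean log2 signal of the 18 control probe sets was 10.82, 11.00 and 10.93 on the mineralizing arrays and 11.03, 11.00 and 11.15 on the AEBSF arrays; its part in the result was not tested.

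**Figure D4:**
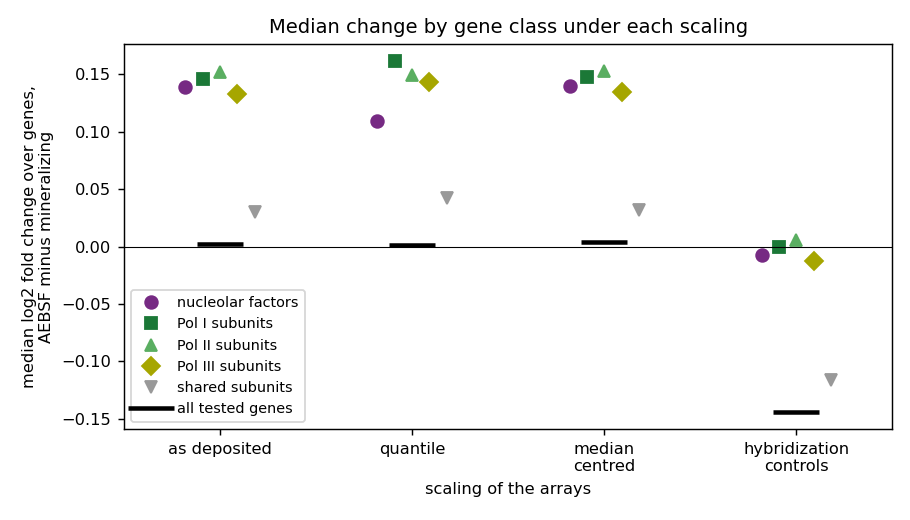
Median log2 fold change of each gene class and of all tested genes under 4 scalings of the arrays. With the deposited scaling, quantile normalization and median centring the nucleolar factors and polymerases I, II and III lie above 0 with all genes at 0, and with hybridization control scaling these classes lie near 0 with all genes at -0.14.

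Other factors of the pathway were counted from lists written from textbook knowledge. Of 48 further large subunit factors tested, 16 (33.3%) rose and 1 (2.08%) fell, beside 7.09% and 9.22% of all tested genes. Their median was 0.16 (0.02 with hybridization control scaling). Pelp1 (0.45, limma adjusted p = 0.0224), Tma16 (0.42, adjusted p = 0.000808) and the methyltransferase Ftsj3 (0.40, adjusted p = 0.00184) had the largest rises. The gene that fell was Las1l, a subunit of an endonuclease that cuts the precursor (-0.28, adjusted p = 0.0389). The higher count was 7 without mineralizing culture 1, 8 without mineralizing culture 2, 10 without AEBSF culture 1, 10 after median centring, 3 with the constant variance prior and 0 with hybridization control scaling. In the same order 2.96%, 3.23%, 3.98%, 4.96%, 1.47% and 0.618% of all tested genes were called higher. Pelp1 did not pass when mineralizing culture 1 (0.0577) or 3 (0.0812), or AEBSF culture 1 (0.0728) or 2 (0.0698), was left out. Las1l passed only without AEBSF culture 2 among the 6 omissions, the other adjusted p ranging from 0.0677 to 0.146.

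Of 39 further small subunit factors and nucleolar proteins, 6 (15.4%) rose and 0 fell, beside 7.09% and 9.22% of all tested genes. Their median was 0.13 (-0.02 with hybridization control scaling). At an unadjusted limma p below 0.05, 15 were higher and 2 lower, beside 15.2% and 16.6% of all tested genes. Tcof1, a nucleolar scaffold of polymerase I transcription, had the largest rise (0.48, adjusted p = 0.00772), but the mean of its several probe sets gave 0.21 (adjusted p = 0.312). Tbl3, a processome protein, went from 891 ± 25.5 to 1219 ± 43.6 (SD, n = 3; 0.45, adjusted p = 0.00135), and Nolc1, a chaperone of guide RNA particles, was at 0.33 (adjusted p = 0.00468). The counts were 4 higher and 1 lower without mineralizing culture 2, 2 and 0 with the constant variance prior, and 0 and 2 with hybridization control scaling. Of all tested genes 3.23% were higher and 5.12% lower, then 1.47% and 4.05%, and then 0.618% and 15.6%, in the same order.

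In the polymerase I list of initiation factors and regulators, the called initiation factors rose and the called falls were among its other genes. Among 13 tested for polymerase I, 3 rose and 3 fell (23.1% each), beside 7.09% and 9.22% of all tested genes. Their median was -0.03, and with hybridization control scaling 1 rose and 4 fell, beside 0.618% and 15.6% of all tested genes. Taf1d and Taf1c, of the factor that selects the ribosomal promoter, rose by 0.44 each on the log2 scale (limma adjusted p = 0.00209 and 0.0165), and Ubtf, which opens ribosomal chromatin, by 0.47 (adjusted p = 0.0192). Mxd4 and Mxi1, repressors that bind E-boxes with Max in place of Myc, fell by 0.70 and 0.49 (adjusted p = 0.000807 and 0.00164), and Top2a, a DNA topoisomerase, by 0.28 (adjusted p = 0.0149). Top2a did not pass when mineralizing culture 1 (0.0589) or 2 (0.0604) was left out. With the constant prior 1 rose and 2 fell, beside 1.47% and 4.05% of all tested genes. Myc itself read 4849 ± 272 in the mineralizing cultures and 4292 ± 126 with AEBSF (-0.18, adjusted p = 0.0617), and was called lower after quantile normalization (-0.21, adjusted p = 0.0134), with hybridization control scaling (-0.32, adjusted p = 0.0119) and with the filter at the 60th percentile (-0.18, adjusted p = 0.0449). Max had an adjusted p of 0.988. Without mineralizing culture 2 or 3 the higher count was 1: Taf1c (0.0684 and 0.0585) and Ubtf (0.0736 and 0.0519) were then not called. Of all tested genes 3.23% and 4.38% were called higher under these omissions. Ubtf was also not called without AEBSF culture 1 (0.0669) or 2 (0.0582), or as an average over its probe sets (0.2).

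For polymerase III, 1 of 16 initiation factors and regulators rose (6.25%) and 2 fell (12.5%), near the 7.09% and 9.22% of all tested genes. The counts were 0 and 2 with hybridization control scaling and 0 and 0 with the constant variance prior. Of all tested genes 0.618% were higher and 15.6% lower with that scaling, and 1.47% and 4.05% with that prior. Ssb, the La protein that binds new polymerase III transcripts, was at 0.26 (limma adjusted p = 0.0128), Maf1, the repressor of that polymerase, at -0.29 (adjusted p = 0.043), and Gtf3c1 at -0.26 (adjusted p = 0.0388). Averaging probe sets turned the sign of Ssb (-0.01, adjusted p = 0.973) and of Gtf3c1 (0.29, adjusted p = 0.3). Ssb did not pass without mineralizing culture 1 (0.0545). Maf1 passed only without AEBSF culture 1 among the 6 omissions (otherwise 0.0854 to 0.123), and Gtf3c1 only without AEBSF culture 3 (otherwise 0.0558 to 0.136).

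In each of 4 further lists 1 gene rose and 0 fell. General initiation factors of polymerase II gave 1 higher of 26 (Gtf2h1, 0.19, limma adjusted p = 0.0322) and elongation factors 1 of 20 (Supt6h, 0.26, adjusted p = 0.0214). Assembly factors of the guide RNA particles gave 1 of 11 (Ruvbl1, 0.26, adjusted p = 0.00676), and assembly factors of the polymerases 1 of 11 (Pfdn6, 0.21, adjusted p = 0.0359). As shares these are 3.85%, 5% and, for both assembly lists, 9.09%, beside 7.09% of all tested genes. Their medians were 0.00, 0.11, 0.08 and 0.17 in that order, the last above that of the nucleolar factors; with hybridization control scaling they were -0.14, -0.03, -0.07 and 0.03. At an unadjusted limma p below 0.05, 4 of 26, 7 of 20, 2 of 11 and 5 of 11 were higher and 1, 1, 0 and 1 lower. Of all tested genes 15.2% were higher and 16.6% lower at that p. With the constant variance prior 0 genes were called in these 4 lists. The guide RNA particle list also holds Nop10, counted above as a member, and both assembly lists hold Rpap3. Ruvbl1 passed without any single culture, whereas Gtf2h1 passed under no omission (0.0506 to 0.118). Supt6h passed without mineralizing culture 1 or AEBSF culture 3 and not without the other omissions (0.0585 to 0.0793), and Pfdn6 passed without AEBSF culture 1 and not without the others (0.059 to 0.119). The RNA exosome, which trims ribosomal RNA precursors, gave 0 of 11 by limma, and 0 also at an unadjusted p below 0.05.

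Of 41 cytosolic ribosomal protein genes 3 rose, Rps15a (0.26, limma adjusted p = 0.017), Rpl21 (0.26, adjusted p = 0.0344) and Rpl23a (0.19, adjusted p = 0.0366). That share, 7.32%, was near the 7.09% of all tested genes. The AEBSF values all lay above the mineralizing ones for 5 of the 41 (12.2%, against 17% of all tested genes). In this list 39 of 41 were above 0, with a median of 0.10 under the deposited scaling, -0.01 after quantile normalization and -0.05 with hybridization control scaling. The count of 3 became 0 after quantile normalization, after median centring, with the constant prior, without mineralizing culture 1 and without AEBSF culture 1. In the same order 7.2%, 4.96%, 1.47%, 2.96% and 3.98% of all tested genes were called higher. The count was 1 without mineralizing culture 2, 6 without mineralizing culture 3, 2 without AEBSF culture 2 and 1 without AEBSF culture 3. Of all tested genes 3.23%, 4.38%, 4.84% and 6.49% were then called higher, in that order. Of 9 p53 targets and regulators, which respond when ribosome assembly is disturbed, 0 rose and 1 fell, Phlda3 (-0.18, adjusted p = 0.0394), with 0 higher and 3 lower at an unadjusted limma p below 0.05. In 4 of the 9 all AEBSF values lay below all mineralizing ones, against 19.1% of all tested genes. The called share was 11.1%, near the 9.22% of all tested genes called lower, and 16.6% of those were lower at the unadjusted p. The lower count was 2 with hybridization control scaling and 0 with median centring or the constant prior. Of all tested genes 15.6%, 7.31% and 4.05% were called lower in the same order. Phlda3 passed only without AEBSF culture 1 among the 6 omissions (otherwise 0.0872 to 0.125).

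**Figure D5:**
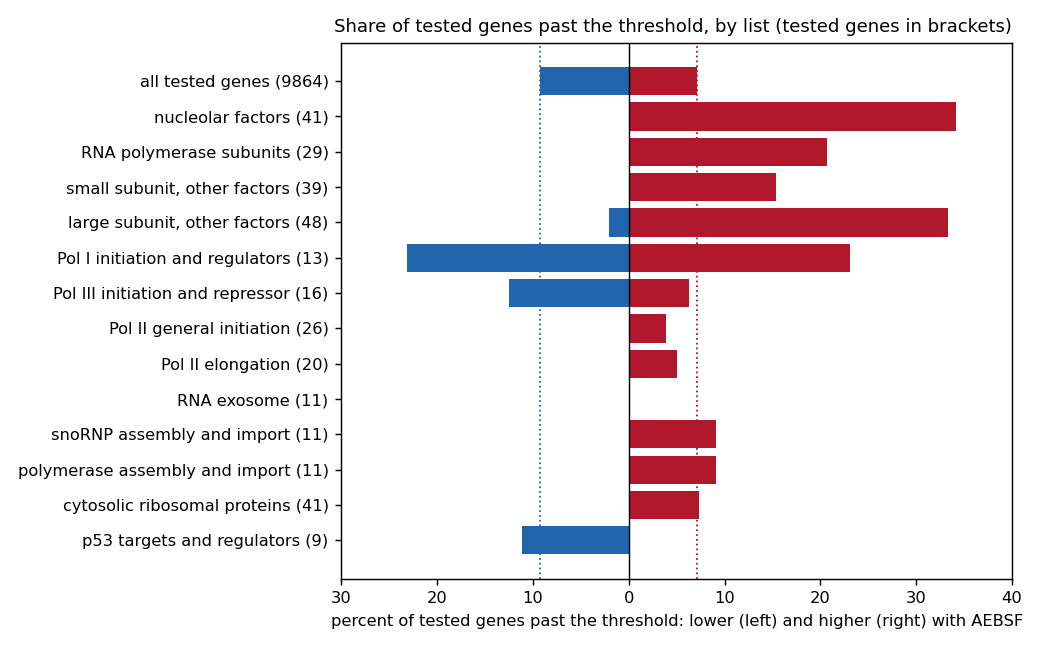
Percent of tested genes past the threshold in each list, lower with AEBSF to the left and higher to the right, with the number of tested genes in brackets and the shares of all tested genes as dotted lines. Nucleolar factors (34.1% higher), polymerase subunits (20.7% higher) and the further small and large subunit factors extend to the right of the dotted line. The list of polymerase I initiation factors and regulators extends in both directions.

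Across the series, array medians ranged from 127.3 to 135.5, the 3' over 5' ratio of the actin control from 1.46 to 1.61 and that of the GAPDH control from 1.02 to 1.08. Of 10 osteoblast markers 7 lay above the filter, summed at 27910 to 29250 in the mineralizing cultures and 25370 to 26300 with AEBSF. Ibsp makes up most of that sum and was not called (0.05), nor was Alpl (-0.05), while the collagen genes Col1a2 (-1.13) and Col1a1 (-0.67) and the endopeptidase Phex (-0.73) were lower (limma adjusted p = 1.27e-05, 0.00116 and 3.36e-05). Bglap lay below it, and Runx2 and Sp7 are not analysed here. Defining markers of endothelium, adipocytes and muscle were all below the filter, and of 5 macrophage and blood markers 1, Csf1r, was above it. The part of these markers in the results was not tested. The 5S ribosomal RNA control probe set, a polymerase III product, read 404, 355 and 332 and then 440, 406 and 435. The lowest AEBSF value, 405.6, was barely above the highest mineralizing one, 404.4. Control probe sets were left out of the limma fit, so this difference was not tested.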

How the data were processed

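The deposited table gives 1 intensity per probe set and array for 6 arrays, a linear MAS5 signal that, per the submitters' processing notes, the authors produced with GCOS. The sources used here give neither versions nor a scaling target. Each array had a mean of 500.15 or 500.16 once 2% of probe sets were trimmed at either end. Probe sets were named from the platform annotation table (20826 with 1 symbol, 436 with several, 9780 unnamed). The log2 signal was tested in R 4.3.3 with limma 3.58.1 (lmFit, eBayes with a trended prior), AEBSF minus mineralizing, over the 18625 probe sets whose mean lay above the 40th percentile (signal 67.2) of those other than the 57 controls, two-sided, with Benjamini-Hochberg adjustment over all of them. A gene stands for its brightest probe set. The fit was tested on simulated data.

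The gene set, the roles and the lists were chosen with earlier results of these data known. Genes named in full were the 12 members with the largest rises past the threshold, 15 set by name and the 2 brightest of each class; of each list, up to 3 by size of change, or, with fewer than 2 calls, up to 2 by brightness. Other members are named to complete a complex or because a call, a fall or an overlap singled them out after their values were seen. The labels call the cultures triplicate and do not say whether they were separate experiments, so p-values measure the spread between these cultures, and 3 arrays a group limit the precision. No 2 arrays shared more than 2 equal values. Replicate numbers did not pair the cultures: same-number correlations of deviations were 0.01, -0.12 and -0.04. Alternatives were other scalings, added constants, filters, variance priors, the replicate number as a block, averaging probe sets per gene, updated symbols and leaving out each culture.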

Additional observations from a re-analysis of the deposited data

How the results depend on the processing

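The count of nucleolar factors past the threshold (14) lay between 10 and 14 with quantile normalization, median centring, 16 or 64 added, no signal filter, a filter at the 60th percentile, a robust prior, probe set means and updated symbols. It was 1 with hybridization control scaling, 3 with a constant variance prior and 8 to 14 leaving out 1 culture. Polymerase subunits (6) gave 1, the lower Polr2l, with hybridization control scaling, 3 with no filter, 0 with the constant prior and 0 to 6 leaving out 1 culture. Polymerase I (1) gave 0 under these 3 settings and 0 to 1 leaving out 1 culture, polymerase II (2) 0 with hybridization control scaling or the constant prior and 0 to 3, polymerase III (2) 1 with median centring, 0 under these 3 settings and 0 to 2, and shared subunits (1) 0 with the constant prior or probe set means and 0 to 2. Of the named member genes 14 were called, against 1 with hybridization control scaling, 9 with no filter, 3 with the constant prior and 8 to 16 leaving out 1 culture. Over all probe sets 2495 were called, 885 with the constant prior and 1200 to 2250 leaving out 1 culture; with hybridization control scaling 119 were higher and 2457 lower, against 1115 and 1380.

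The nucleolar median (0.139) was -0.008 with hybridization control scaling, 0.101 with probe set means and 0.095 to 0.170 leaving out 1 culture, the lowest without mineralizing culture 1; the polymerase median (0.136) was -0.010 with hybridization control scaling. The cause was not tested. The replicate number as a block, which pairs nothing here, gave 1802 calls over all probe sets, 9 nucleolar, 3 polymerase, 0 polymerase I, 0 polymerase III and 9 of the 32 genes named in full. Array signals give no read depth; the 3 arrays a group limit the precision.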
